A study of Mus musculus with 2 samples.

Results

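Trp63, Sfn, Perp, Fat2, Dst, Gjb2, Gjb6, Grhl3 and Ovol1 are genes known from the basal and early differentiating layers of stratified squamous epithelium, other than keratins. They were found by symbol in the count tables of the intestine of ERAP1 WT and ERAP1+/- mice, where all 9 of 9 were listed among 40879 gene symbols. The mice, 8 weeks old at the start of the study and of C57BL/6 background, are described by the methods as germ-free. They were housed in a specific pathogen-free facility. The labels of these samples name no treatment, and the control groups of the study drank regular water for 28 days. Each genotype came as 1 library, for which RNA of 3 samples was pooled in equal amounts and reads were taken next to the poly(A) tail (QuantSeq). The ERAP1+/- mice descend from ERAP1+/tm1a mice, made from 1 clone of embryonic stem cells, and from a cross with a Cre strain whose promoter is not named, which deletes exons 6 and 7 of Erap1. The comparison asks how gene expression in the intestine differs between the genotypes.

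Stratified squamous epithelium, such as epidermis or the lining of the esophagus and the anal canal, renews itself from a basal layer of cells that sit on a basement membrane. The transcription factor p63, the product of Trp63, keeps this layer in being and drives genes of its adhesion to the membrane and to neighboring cells, while factors such as OVOL1 and GRHL3 act as the cells leave the layer and differentiate. The colon is lined by a single layer of columnar cells, which lack p63 but share with squamous epithelium some genes of adhesion and cell cycle control.

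Counted reads came to 8114826 for WT and to 8907515 for the library labelled ERAP1+/-. With 1 library per genotype there is no replicate check, no test of the genotypes and no p-value, and the intervals given are exact 95% intervals for counting error only. Values are counts scaled to CPM (reads of a gene as a share of the library, on the usual per-1000000 scale) after the trimmed mean of M values (TMM) adjustment. Erap1, the targeted gene, gave 229 reads from WT RNA and 2 from the RNA labelled ERAP1+/-, which is 0.730% of the WT level (95% interval 0.0878% to 2.67%), a level that goes against a label of 1 intact allele. Reads of the 3' end lie outside the deleted exons and do not check the deletion itself, and the libraries are named below by their labels. The pools also differed in genes of sex, with 1635 and 6451 reads of Xist and 319 and 29 of the Y-linked Ddx3y, so genotype and the sex of the pooled mice cannot be told apart. The tissue label was checked with 20 genes of simple colonic epithelium, all of which had reads in both libraries, with a summed level of 17638 CPM in WT and 16499 CPM in ERAP1+/-.

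The 9 genes fell apart into those without a read in the library labelled ERAP1+/-, those at a reduced level and those that differed little. Trp63, Gjb6 and Fat2 had reads in WT and none in ERAP1+/-. Sfn (2.71-fold), Gjb2 (2.15-fold) and Perp (1.98-fold) were lower in ERAP1+/-. Dst and Ovol1 differed by less than 1.5-fold, and Grhl3 had too few reads to place.

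**Figure D1:**
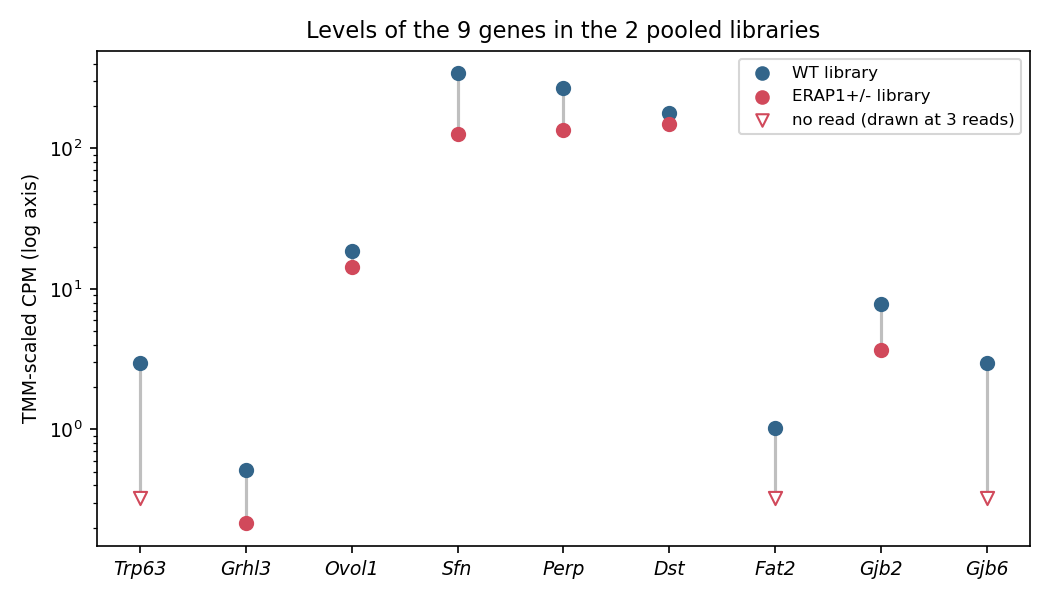
Level of each of the 9 genes in the WT library (blue) and the library labelled ERAP1+/- (red), as TMM-scaled CPM on a log axis, with 1 pooled library per genotype and no error bars. Open triangles stand for no read and are drawn at the level of 3 reads (0.322 CPM), and the ERAP1+/- point of Grhl3 (2 reads) lies below that level; all 9 blue points lie above their red partners.

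A gene was called different where log2(CPM + 1) differed by more than 1, which is 2-fold, and reached 4 in 1 or both libraries, which is 15 CPM. Of the 9 genes, 4 reached that level (Sfn, Perp, Dst and Ovol1), and 1 of them, Sfn, was called lower. Over all 8013 genes at that level, 3.96% were called lower and 1.39% higher. With at least 10 reads over both libraries in place of that level, 7 of the 9 genes could be counted, 3 of these were past 2-fold lower (Trp63, Sfn and Gjb6) and none was higher, while 5.63% of 16142 genes were lower and 2.99% higher. Trp63 and Gjb6 passed the read minimum through the WT library alone and so had to differ. The median log2 difference of the 7 genes was -0.98, that of Perp, beside 0.00 for all genes with 10 reads. Fat2 (8 reads over both libraries) and Grhl3 (6 reads) were left out of these counts.

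Among the transcription factors, Trp63 (chromosome 16, 25683763 to 25892102, plus strand, GENCODE M21 on GRCm38) had 23 reads in WT against 0 in ERAP1+/-. This is 2.96 CPM in WT and up to 0.322 CPM in ERAP1+/-, since a count of 0 allows up to 3 reads. Against that floor of 3 reads, with the WT reads taken as they are, Trp63 was at least 9.18-fold lower in ERAP1+/-. The exact 95% interval, which also covers the counting error of the WT reads, allows a difference as small as 6.88-fold. The annotation holds 8 coding transcripts of Trp63. Of these, 4 start at 25801916, downstream of the others, and such a start gives the short ΔN form of p63 that basal cells make, while the longer TA form starts upstream. Transcripts of both kinds end at 25892102, while some annotated ends, such as 25821318, belong to a single kind. Reads were counted per gene, so the counts do not tell the forms apart.

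Ovol1 (chromosome 19, 5549136 to 5560646, minus strand), a zinc finger repressor that acts as epithelial cells stop dividing and differentiate, had 144 reads in WT and 134 in ERAP1+/-. Its level was 18.5 CPM in WT and 14.4 CPM in ERAP1+/-, a 1.29-fold lower value (95% interval 1.01 to 1.64). A pseudogene annotated on the opposite strand, Gm31166, covers the 3' end of Ovol1. The library kit keeps strand, but whether the counting used it is not given in the sources used here. Grhl3 (chromosome 4, 135541888 to 135573630, minus strand), a grainyhead-like factor of barrier formation, had 4 reads in WT and 2 in ERAP1+/-. The interval of its ratio ran from 0.0378 to 2.91, so a difference was not detectable at this depth.

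Sfn (chromosome 4, 133600556 to 133602168, minus strand) encodes 14-3-3 sigma, an epithelial member of the 14-3-3 adaptor proteins that holds back the cell cycle and is a known target of p53. It had 2665 reads in WT and 1178 in ERAP1+/-. The level was 343 CPM in WT and 127 CPM in ERAP1+/-, which is 2.71-fold lower (95% interval 2.53 to 2.90). Of the 9 genes, Sfn was the one with many reads in both libraries whose interval lay wholly past 2-fold. The bases before its RefSeq start are shown because they held the grainyhead-like motif AACNGGTT (capitals). Of the 6 genes with such a window, Sfn and Gjb6 held this motif. The 250 bases are of the strand of the gene, at chr4:133602169-133602418 of GRCm38.p6:

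Sfn: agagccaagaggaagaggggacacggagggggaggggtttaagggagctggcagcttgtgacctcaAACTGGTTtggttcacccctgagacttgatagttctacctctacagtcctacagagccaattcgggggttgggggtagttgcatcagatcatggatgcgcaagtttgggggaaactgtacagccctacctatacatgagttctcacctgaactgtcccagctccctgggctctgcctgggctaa

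The motif was found in 1.79% of 32851 promoter windows of this length on either strand, and 6 of the 9 genes had a window, with no entry for Trp63, Perp and Ovol1. The motif ran from position -184 to -177, counted back from -1 at the last base before the start. A match of letters is a description, and binding of a factor there was not measured. Whether the motif is related to the differences in reads was not tested.

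Perp (chromosome 10, 18845020 to 18857073, plus strand), a tetraspan membrane protein of desmosomes and a known target of both p53 and p63, had 2089 reads in WT and 1260 in ERAP1+/-. Its level was 269 CPM in WT and 135 CPM in ERAP1+/-. At 1.98-fold lower (95% interval 1.85 to 2.13) and a log2 difference of -0.98, Perp lay just inside the 2-fold limit, and the interval spans that limit. Dst (chromosome 1, 33908225 to 34308661, plus strand), whose epithelial form BPAG1e ties keratin filaments to hemidesmosomes, had 1385 reads in WT and 1394 in ERAP1+/-. Its level was 178 CPM in WT and 149.9 CPM in ERAP1+/-, a 1.19-fold lower value (95% interval 1.10 to 1.28). The count sums 14 coding transcripts with 13 different annotated ends, and other forms of dystonin are known from muscle and neurons, so the epithelial form was not measured by itself. Fat2 (chromosome 11, 55250609 to 55336564, minus strand), a giant cadherin that steers the migration of epithelial cells, had 8 reads in WT and 0 in ERAP1+/-. From 1.03 CPM in WT, it was at least 3.19-fold lower against the floor of 3 reads, and the exact 95% interval allows a difference as small as 2.04-fold.

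Gjb2 and Gjb6 encode connexin 26 and connexin 30, subunits of gap junctions that pass ions and small molecules between keratinocytes and in the inner ear. They are neighbors on the minus strand of chromosome 14, Gjb2 from 57098600 to 57104702 and Gjb6 from 57123303 to 57133611, with 18600 bases and 1 other annotated gene between them. Gjb2 had 61 reads in WT and 34 in ERAP1+/-, or 7.85 and 3.65 CPM, which is 2.15-fold lower (95% interval 1.39 to 3.37). On the log2(CPM + 1) scale, where the pseudocount shrinks the differences of low genes, its difference was -0.93 and stayed inside 2-fold. Gjb6 had 23 reads in WT and 0 in ERAP1+/-, the same counts and so the same bounds as Trp63. Relative to Gjb6, the lower bound for Gjb2 in ERAP1+/- was 2.93 times its WT value, a bound that rests on the count of 0 for Gjb6.

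The windows before the RefSeq starts of the neighbors are shown because the genes lie side by side. Gjb2 is at chr14:57104703-57104952 and Gjb6 at chr14:57133612-57133861 of GRCm38.p6, each with 250 bases of the minus strand. Capitals mark the GC box GGGCGG and the AP-2 motif GCCNNNGGC in Gjb2. In Gjb6 they mark the grainyhead-like motif at the left and a pair of p53-family half-sites, RRRCWWGYYY. There R is A or G, W is A or T and Y is C or T.

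Gjb2: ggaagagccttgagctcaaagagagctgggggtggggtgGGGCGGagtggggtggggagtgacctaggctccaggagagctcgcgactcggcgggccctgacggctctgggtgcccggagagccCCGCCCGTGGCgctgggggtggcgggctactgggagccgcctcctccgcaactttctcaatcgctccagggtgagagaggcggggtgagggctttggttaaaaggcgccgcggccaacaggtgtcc
Gjb6: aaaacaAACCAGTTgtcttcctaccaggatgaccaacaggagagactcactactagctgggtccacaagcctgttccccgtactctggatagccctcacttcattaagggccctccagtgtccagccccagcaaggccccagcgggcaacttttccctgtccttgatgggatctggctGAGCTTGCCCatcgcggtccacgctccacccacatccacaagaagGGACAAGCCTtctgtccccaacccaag

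The Gjb2 window had 69.2% G and C and the Gjb6 window 56.8%. On the 250-base windows of all promoters, a p53-family half-site was found in 7.13%, the AP-2 motif in 13.7% and the GC box in 32.7%, on either strand. In Gjb6 the p53-family half-sites ran from -72 to -63 and from -27 to -18 and are not adjacent. Among the 7 windows of the 9 genes no other held this half-site, and the share of windows with a pair was not counted. In Gjb2 the GC box from -126 to -121 overlaps the AP-2 motif from -124 to -116. The AP-1 motif TGANTCA was in none of the 7 windows and in 6.75% of all windows. The TATA box TATAAA was likewise in none, beside 12.4% of all windows. For the CDX motif TTTATNG, which was in none either, the share was 9.81%.

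The scaled ratios were set beside basal keratins, which mark the layer itself, and beside markers of all colonic epithelium. Krt5 had 418 and 73 reads in WT and ERAP1+/- and was 6.86-fold lower in ERAP1+/-. Krt14 had 623 and 97 reads (7.69-fold) and Krt15 296 and 18 reads (19.7-fold). Epcam, a surface marker of the columnar epithelium of the gut, had 9812 and 9413 reads and was 1.25-fold lower. The 20 genes of simple colonic epithelium did not all lie near Epcam. Of these, 1 was past 2-fold lower (Krt20) and 2 were higher (Muc2 and Cldn15), with a median log2 difference of -0.29.

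**Figure D2:**
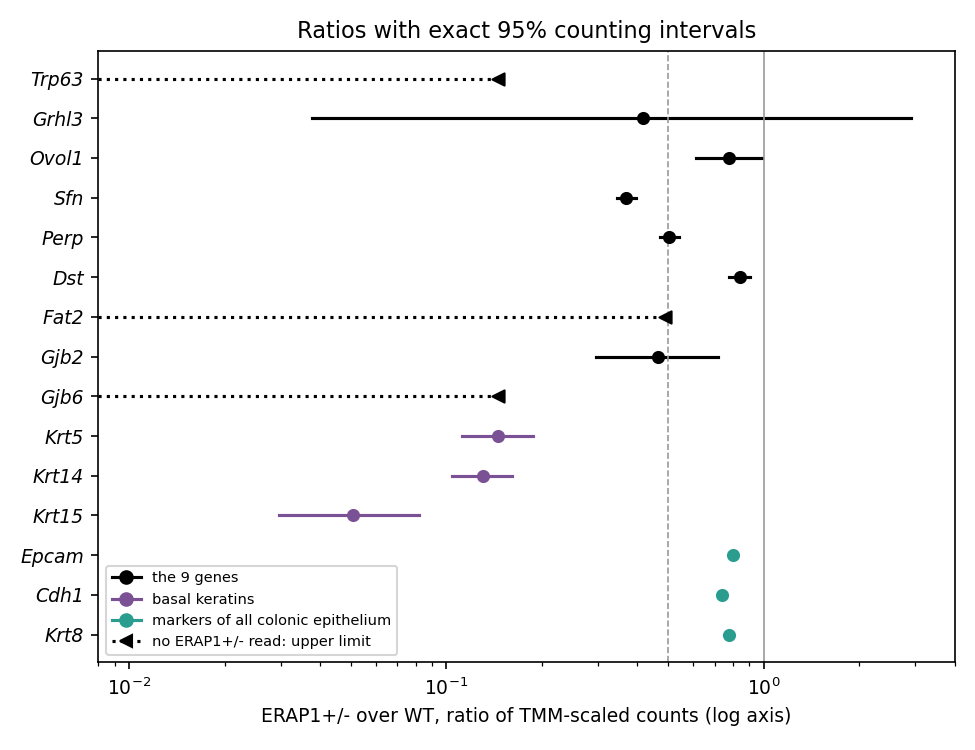
Ratio of TMM-scaled counts, ERAP1+/- over WT, on a log axis for the 9 genes (black), 3 basal keratins (purple) and 3 markers of all colonic epithelium (green), with lines for exact 95% counting intervals, a solid line at 1 and a dashed line at 0.5. Dotted lines end at the upper limit of genes without an ERAP1+/- read (0.145 for Trp63 and Gjb6, 0.489 for Fat2); Ovol1 (0.777) and Dst (0.841) lie beside Epcam (0.801), and Sfn (0.369) and Perp (0.504) lie between the keratins and Epcam.

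Ratios of a pair of genes within each library do not depend on scaling. Against Krt14, the ratio of Sfn to Krt14 reads in ERAP1+/- was 2.84 times that in WT (95% interval 2.26 to 3.59). The same value was 3.87 for Perp (3.08 to 4.90), 3.57 for Gjb2 (2.16 to 5.86), 5.96 for Ovol1 (4.29 to 8.32) and 6.46 for Dst (5.14 to 8.19). These 5 genes were thus less reduced than the basal keratin. For Trp63 and Gjb6 the upper bound against Krt14 was 1.14, and for Fat2 3.83, so a difference from Krt14 was not detectable at this depth.

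Against Epcam, Dst was at 1.05 (95% interval 0.968 to 1.14) and Ovol1 at 0.970 (0.760 to 1.24), and both intervals include 1. Sfn was at 0.461 (0.427 to 0.497), Perp at 0.629 (0.583 to 0.678) and Gjb2 at 0.581 (0.370 to 0.899). The upper bound of Trp63 and Gjb6 against Epcam was 0.181 and that of Fat2 0.611. In all, 18 such pairs with a reference gene and 36 pairs among the 9 genes were computed. Their intervals were not adjusted for their number, and 11 and 20 of them excluded 1. Those that hold Trp63, Gjb6 or Fat2 rest on the lack of reads in ERAP1+/-, and pairs of these genes with each other have no defined ratio. Trp63 and Gjb6 have equal counts, so their pairs with other genes repeat each other. Sfn was lower than Perp (0.733, 0.664 to 0.809), while Dst and Ovol1 (1.08, 0.839 to 1.40) did not differ beyond counting error. Dst and Ovol1 thus did not differ from Epcam beyond counting error and, like Sfn, Perp and Gjb2, were less reduced than Krt14. An interval that includes 1 does not show that the genes behave alike, and the Dst count is not of the epithelial form alone. Whether the 9 genes follow a shared program was not tested.

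Each gene was then set beside the other members of its family. In the p53 family, Trp53 had 67 reads in WT and 120 in ERAP1+/-, a log2 difference of 0.53 (95% interval of the ratio 1.10 to 2.05), opposite in direction to Trp63. Of the 14-3-3 genes, the 6 other than Sfn were within 2-fold, with log2 differences from -0.31 for Ywhaz to 0.23 for Ywhaq. The family median changed sign with scaling by the total count (-0.08 and 0.05). Among the grainyhead-like factors, Grhl1, which acts in epidermis and hair follicle, had 153 and 8 reads and was 22.9-fold lower in ERAP1+/- (95% interval of the ratio 0.0185 to 0.0883), whereas Grhl2, the factor of simple and stratified epithelia alike, had 199 and 221 reads and a log2 difference of -0.10. Ovol2 had 168 and 247 reads (log2 difference 0.28).

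Of the 7 plakins, 2 were past 2-fold lower. These were Ppl (398 and 72 reads, 6.62-fold) and Evpl (318 and 167 reads, 2.28-fold), the envelope plakins of the cornified layer, while Dst, Macf1 (1571 and 1670 reads), Plec (2767 and 2227 reads), Dsp and Eppk1 were within 2-fold. In the Fat family, Fat1 had 556 and 637 reads, Fat3 25 and 15 and Fat4 24 and 65. The log2 differences were -0.06 for Fat1, -0.69 for Fat3 and 0.97 for Fat4. Tmem47, the relative of Perp, had 168 and 151 reads (log2 difference -0.39).

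Of 20 connexin genes, 11 had at least 10 reads, of which 3 were past 2-fold lower and 1 higher. Gjb6 was among the lower genes, as was Gjc3, a connexin of glia, with 11 and 0 reads (upper bound of the ratio 0.333). Both had no read in ERAP1+/- and passed the read minimum through WT alone. Gja4, a connexin of blood vessels, was the higher one, with 9 and 41 reads. Gjb1, the connexin of columnar gut and liver cells, was 1.30 times its WT level (203 and 317 reads, 95% interval 1.09 to 1.56).

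**Figure D3:**
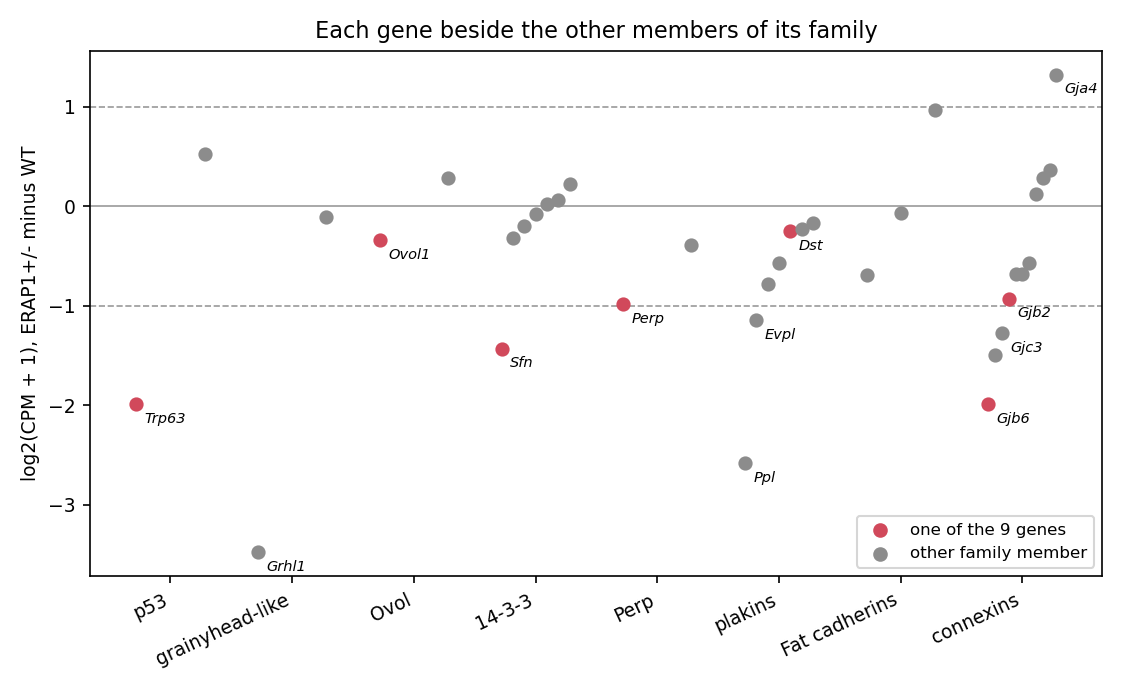
Difference of log2(CPM + 1), ERAP1+/- minus WT, for genes with at least 10 reads over both libraries, grouped by family, with the genes of this report in red, other members in gray and dashed lines at 2-fold. Trp63, Sfn and Gjb6 lie lowest in their families, while Grhl1 and Ppl lie below the red genes; Fat2 and Grhl3 have under 10 reads and are not drawn.

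The other genes of the program were counted with the same rule. Of 11 basal layer markers, 9 were past 2-fold lower and none higher, with a median log2 difference of -2.63. Lgals7 (galectin-7 of keratinocytes) had 845 and 6 reads, and Dsc3, a desmosomal cadherin of basal cells, had 60 and 0. Dsc3 passed the read minimum through WT alone and so had to differ. The exceptions were Cdh3 (6 and 7 reads) and the Notch ligand Jag2 (38 and 19 reads, log2 difference -0.95). The summed level of the list was 356 CPM in WT and 35.0 CPM in ERAP1+/-.

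Of 13 genes of the hemidesmosome and the basement membrane, 12 could be counted and 2 were past 2-fold lower. Col17a1, the collagen that binds BPAG1e in the hemidesmosome of skin, had 35 and 4 reads (10.5-fold lower), and Itga3 had 507 and 227 reads (2.67-fold lower). The integrins of the same junction that gut epithelium also makes differed less, with 1839 and 1907 reads for Itga6 and 951 and 699 for Itgb4, and log2 differences of -0.21 and -0.70. The list median was -0.48.

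Of 27 other transcription factors of stratified epithelium, 23 could be counted, and 9 were past 2-fold lower and none higher, with a median log2 difference of -0.66. The lower genes included the AP-2 factors Tfap2a (60 and 2 reads), Tfap2b (36 and 0 reads) and Tfap2c (42 and 2 reads), the homeobox gene Dlx3 (28 and 1 reads) and Grhl1. Of these, Tfap2b passed the read minimum through WT alone and so had to differ. The factors with the most reads, Klf4 (20240 and 15474), Klf5 (8214 and 10392) and Vdr (3127 and 2646), were within 2-fold and are also made in the colon.

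Of 17 other known targets of p63, 3 were past 2-fold lower, namely Krt5, Krt14 and Cldn1 (81 and 24 reads), and the median log2 difference was -0.43. Of 21 other targets of p53, 20 could be counted, with 1 lower, 1 higher and a median log2 difference of -0.08, or 0.04 with scaling by the total count. Cdkn1a, the cell cycle inhibitor p21, had 4000 and 4128 reads (log2 difference -0.21) and Mdm2 352 and 398 (-0.08). Pmaip1 was the lower gene (476 and 171 reads, 3.33-fold) and Ddb2 the higher one (9 and 57 reads). Sfn and Perp, with log2 differences of -1.43 and -0.98, thus stood below the median of either target list.

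Markers of some other tissues were also lower in ERAP1+/-, and those of others were not. Of 16 genes of suprabasal and cornified epidermis, 15 were past 2-fold lower, with a summed level of 4204 CPM in WT and 1294 CPM in ERAP1+/-, most of the latter from Tgm3 (11560 reads). All 7 genes of mucosal stratified epithelium were lower (592 and 30.4 CPM), as were 15 of 16 genes of hair follicle (318 and 3.01 CPM), all 8 of sebaceous gland (272 and 4.51 CPM) and 18 of 19 of skeletal muscle (1460 and 25.9 CPM). Some of these genes had no read in ERAP1+/-, passed the read minimum through WT alone and so had to differ, namely 5 of the 16 cornified, 1 of the 7 mucosal, 13 of the 16 hair follicle, 3 of the 8 sebaceous and 2 of the 19 muscle genes. The defining markers Krt1, Krt10, Krt4 and Krt13 had 6, 72, 9 and 94 reads in ERAP1+/-, while Ivl and Dsc1 had none. Genes of smooth muscle were 1.94-fold lower in sum (8803 and 4533 CPM), with 2 of 8 past 2-fold. Genes of enteric neurons and glia, 10 in all, had none past 2-fold and a median log2 difference of 0.33. Of 5 urothelial genes, Upk1a had 140 and 84 reads, Upk1b 8 and 20, Upk3b 0 and 2, and Upk2 and Upk3a none in either library. Of 5 melanocyte genes, Pmel had 6 and 5 reads, Dct 8 and 13, and Tyr, Tyrp1 and Mlana none. In such bulk RNA, fewer cells of a type and less RNA per cell cannot be told apart, and the part of any of these tissues in the differences of the 9 genes was not tested.

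**Figure D4:**
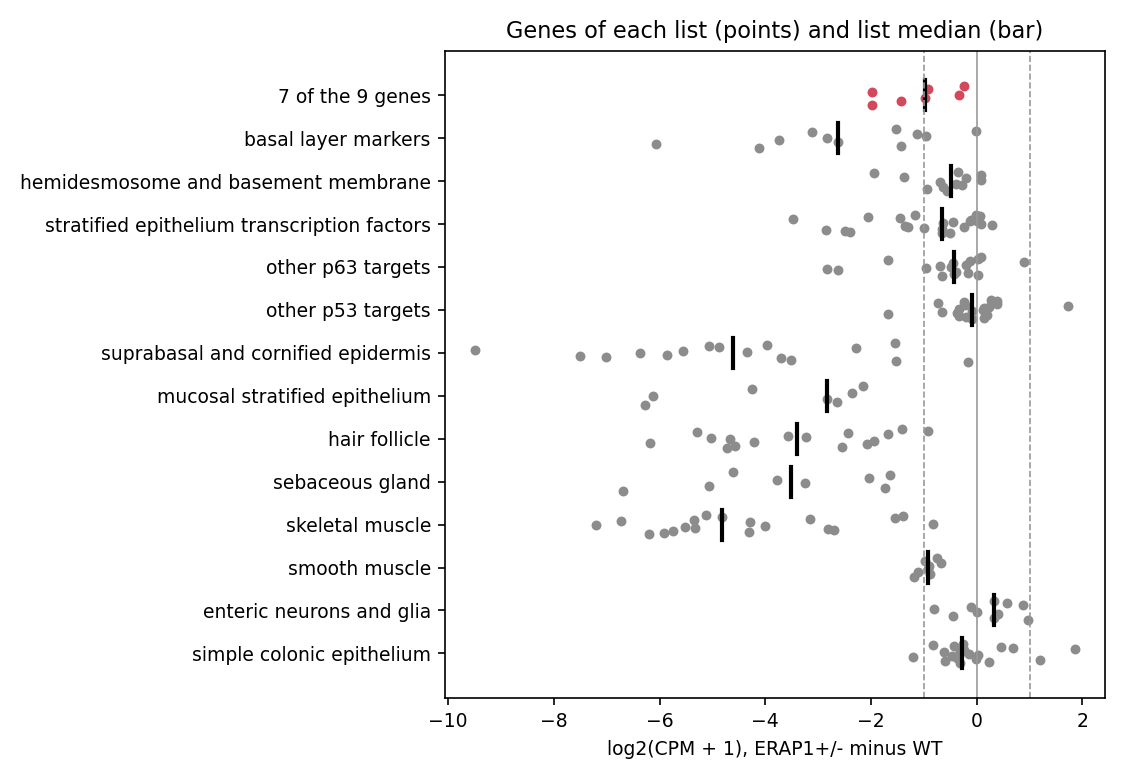
Difference of log2(CPM + 1), ERAP1+/- minus WT, for each gene with at least 10 reads over both libraries (points), by list, with the list median as a bar and dashed lines at 2-fold. The median of the 7 counted genes (red, -0.98) lies between that of the basal layer markers (-2.63) and that of simple colonic epithelium (-0.29).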

How the data were processed

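RNA of the intestine of ERAP1 WT and ERAP1+/- mice was sequenced with the QuantSeq 3' FWD kit as single-end reads of 75 bases. Per library, the table deposited by the authors lists raw counts for 40879 gene symbols. The submitters' processing notes name Bowtie2, RSEM and GRCm38, the methods also name STAR with HTSeq-count, and which of them made the deposited counts is not given in the sources used here. TMM factors (0.958 for WT, 1.04 for ERAP1+/-) came from edgeR 4.0.16 in R 4.3.3, and log2 values carry a pseudocount of 1. Quasi-likelihood tests cannot be fitted with 1 library per group. Ratios carry exact conditional binomial intervals and pairs of genes exact conditional odds ratios (scipy 1.17.1). The intervals of the ratios, not those of the pairs, were tested on simulated counts with counting error alone. The genes given a difference there had more reads than Trp63, Gjb6, Fat2 and Grhl3. Reads are not independent molecules, so intervals cover counting error only. Positions are from GENCODE M21 and promoters from RefSeq on GRCm38.p6. The genes, lists and motifs were chosen with earlier results of these data known. All 9 genes are named, as are family members with 10 reads, the 4 genes of each other list with the most reads or some that go against it, and further list genes chosen after their values were seen. Alternatives were other scalings (total count, DESeq2 1.42.0 size factors, fewer genes), a pseudocount of 0.1, other filters, a 4-fold limit and thinning of the ERAP1+/- reads. Some genes of the lists are counted but not reported here by name.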

Additional observations from a re-analysis of the deposited data

How the results depend on the processing

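No paired analysis was possible because there was a single pool of RNA per genotype. The number of the 9 genes called was 1 (Sfn) with the level of 4 on the log2 scale. It was 3 with at least 10 reads in 1 or both libraries or over both, 4 with no filter (Fat2 as well), and 0 with a 4-fold limit. The other 7 alternatives for this count (each scaling, the pseudocount, the thinning and a level of 6) gave Sfn alone. The genes added by the looser filters, Trp63, Gjb6 and Fat2, had no read in ERAP1+/-. The share of all genes called was not computed with no filter or with 10 reads in 1 or both libraries. It was not computed at a level of 6 or with a 4-fold limit either, so these counts stand without a background. The median log2 difference of -0.98 was -0.86 with scaling by the total count, which moved the median of all genes at the level of 4 by 0.12 and gave 248 lower and 166 higher genes (59.9% lower) in place of 317 and 111 (74.1%). Leaving out each gene in turn gave -1.21 to -0.96. None of the 54 recomputed values of single genes changed sign, which Trp63, Gjb6 and Fat2 could not do without a read in ERAP1+/-. Of the 54, 13 lay outside the counting interval of the main value. Of 115 recomputed list medians 6 changed sign, with main and alternative values from -0.14 to 0.09. Of the 115, 16 lay outside the medians of the limits of the counting intervals of their list. With a pseudocount of 0.1, Trp63 and Gjb6 were at a log2 difference of -4.94 and Fat2 at -3.50, which shows that these values are set by the pseudocount and not by reads. Depth limits Trp63, Gjb6, Fat2 and Grhl3, with 23 reads or fewer.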

Other observations

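The genes nearest to those past 2-fold were sought by the distance of log2(CPM + 1) over the 2 libraries, which is too few to define a pattern. Nearest to Sfn were Ahnak2 (2664 reads in WT and 1151 in ERAP1+/-, distance 0.033) and Slc4a4 (2560 and 1166 reads, distance 0.060). Trp63 and Gjb6 shared their counts of 23 and 0 reads with each other and with Ces4a and S1pr5, at a distance of 0.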
